A study of Ovis aries with 10 samples.

Results

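The genes described here encode the respiratory chain and ATP synthase, and they were measured by RNA sequencing in the mediobasal hypothalamus of adult Ile-de-France ewes. They were picked by symbol alone from the table of read counts: nuclear genes named NDUFA, NDUFB, NDUFC, NDUFS or NDUFV with a number, SDHA to SDHD, symbols that begin with UQCR, COX4 to COX8 or ATP5, and CYC1, together with the 13 protein genes of mitochondrial DNA. The rule found 73 of the 33775 genes in the table, 60 nuclear and 13 mitochondrial. All 73 had enough reads to be tested, with at least 654 reads over the 10 libraries for the member with the fewest. Of the nuclear subunits of complex III and complex IV, UQCRH, COX5A and NDUFA4 were found, and the others were not analysed here. In this table COX1, COX2 and COX3 are the mitochondrial subunits of cytochrome c oxidase.

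The libraries came from 20 ewes, 10 taken in each phase of the cycle, follicular or luteal. Each library held RNA of 2 ewes of one phase mixed in equal amounts, which gave 5 follicular and 5 luteal libraries from separate animals. The ewes carried no manipulation that the labels record, and the phases are stages of the ovarian cycle. In the luteal phase the corpus luteum secretes progesterone, and in the follicular phase oestradiol from the growing follicle prevails. Hormone levels were not analysed here. All 6 genes listed for the arcuate region (POMC, NPY, AGRP, TAC3, GHRH and KISS1) were measured. Their summed level was 1014 to 2069 CPM (reads scaled to library size) in follicular and 918 to 1550 in the luteal libraries. Genes of other brain regions were not set beside them, so this does not test the tissue label.

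The respiratory chain sits in the inner mitochondrial membrane. Complex I takes electrons from NADH and complex II from succinate, complex III passes them to cytochrome c, and complex IV passes them to oxygen. Complexes I, III and IV pump protons as they do so, and complex V, the ATP synthase, uses the proton gradient to make ATP. Neurons draw most of their ATP from this chain. Its subunits come from both genomes: complex II is wholly nuclear, while complexes I, III, IV and V combine nuclear subunits with a few made inside the mitochondrion from mitochondrial DNA.

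Library totals ran from 20644992 to 43193449 reads, and follicular 1 and 3 were the shallowest. Each gene was tested for a difference between phases with edgeR over all 18276 genes with enough reads. Fold changes are log2 of luteal over follicular, with their standard errors (SE), and p-values were adjusted by the Benjamini-Hochberg method. The estimate was below 0 for 48.5% of all genes, with a median over all genes of 0.01.

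No respiratory chain gene passed the test. Most nuclear members had a lower estimate in luteal libraries, while the mitochondrial members had no common direction. Of the 60 nuclear members 58 had a lower estimate in luteal libraries (96.7%), with a median log2 fold change of -0.42 and a range from -0.83 to 0.33. Of the 13 mitochondrial members 5 had a lower and 8 a higher estimate, with a median of 0.25 and a range from -0.38 to 0.60. Adjusted p by edgeR ran from 0.426 to 0.801 over all 73 members, and 0% of all genes passed at the threshold of 0.05. At an unadjusted p under 0.05, edgeR gave 25 nuclear members and 1 mitochondrial member lower and 0 members higher in luteal libraries, where 7.12% of all genes were lower and 4.27% higher. The members moved together across the libraries, so these counts are not 25 separate observations. In bulk tissue, fewer cells of a type and less RNA per cell cannot be told apart.

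The count at an unadjusted p under 0.05 rested on single libraries. It was 25 of 60 nuclear members with all libraries, and 4 without follicular 1, follicular 3, luteal 3 or luteal 5, where 3.10%, 2.77%, 2.94% and 3.24% of all genes were lower at that level. It was 9 without follicular 4 (3.44% of all genes), 7 without luteal 2 (3.40%) and 30 without follicular 2 (7.01%). It was 36 without luteal 4 (10.1%), 42 without luteal 1 (10.4%) and 49 without follicular 5 (16.2%). The share over all genes thus moved with the members' count. Without follicular 1 and 3 together the count was 0 (1.47% of all genes), the median log2 fold change of the nuclear members was -0.21, and that of the mitochondrial members was 0.00.

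**Figure D1:**
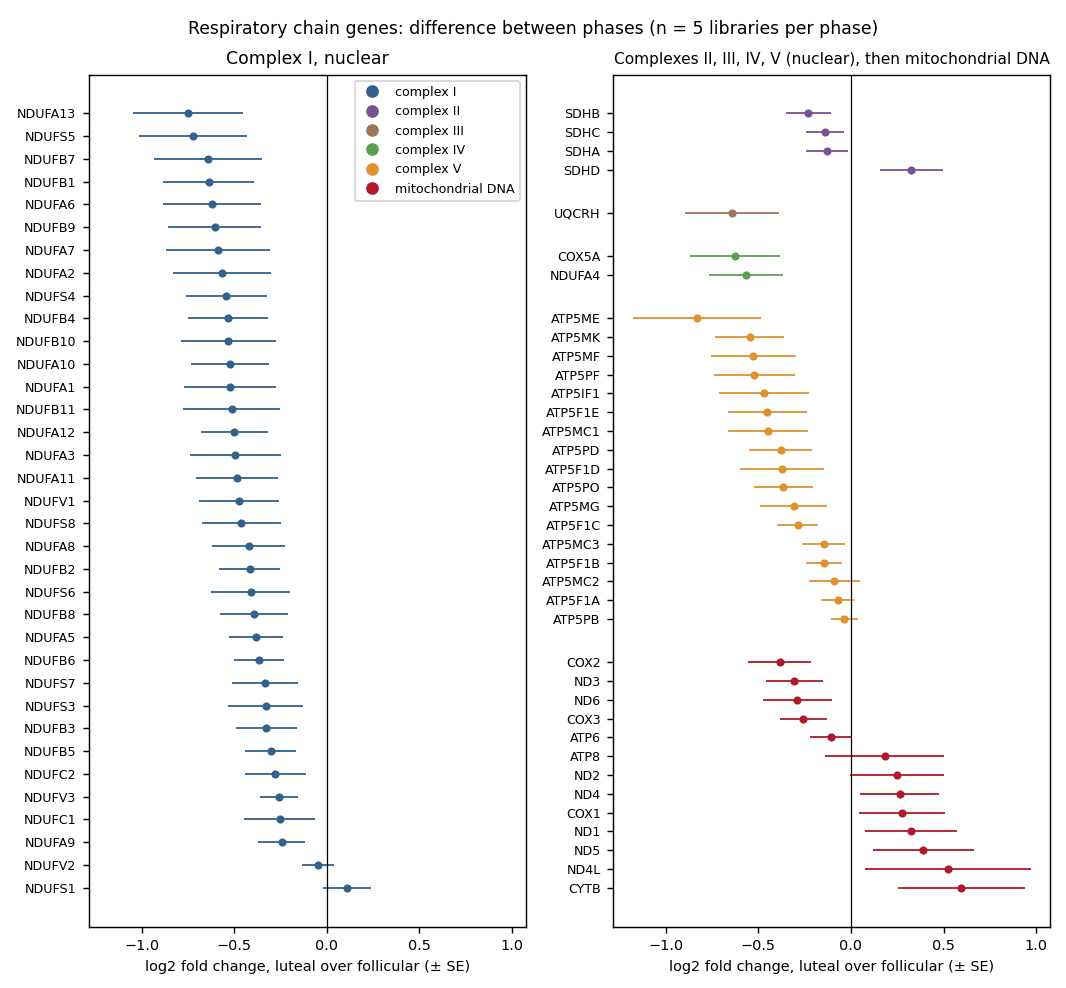
Points give the log2 fold change of luteal over follicular for each respiratory chain gene shown and bars its standard error, with 5 libraries per phase, grouped by complex and with the mitochondrially encoded genes last. All nuclear members shown but NDUFS1 and SDHD lie below 0, while 8 of the 13 mitochondrial genes lie above it.

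The phases overlapped for every member: in 0 of 73 did the 5 luteal values lie wholly on one side of the 5 follicular values, where 0.514% of all genes had every luteal value below and 0.607% every luteal value above. The spread within a phase was near the difference between phases in size. It was smaller in most nuclear members and larger in the 8 mitochondrial members with a higher estimate. The log2 fold change was larger than the within-phase SD of log2 CPM in 47 of the 60 nuclear members, in 3 of the 5 mitochondrial members with a lower estimate and in 0 of the 8 with a higher one. The share of all genes for which this held was not analysed here. As the members moved together, the 47 are not separate observations. From the lowest to the highest of the 10 libraries a nuclear member differed by 1.14-fold to 4.22-fold, with a median of 2.13-fold.

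The nuclear members ordered the libraries in nearly the same way. Follicular 1 or follicular 3 was the highest of all 10 libraries in 51 of the 60, and luteal 3 or luteal 5 the lowest in 56. Follicular 5 went against its phase: it was the lowest follicular library in 56 of the 60 and lay under the luteal mean in 54. Within the luteal phase, luteal 1 or luteal 4 was highest in 56 members. The order thus ran across the phases, with follicular 1, 3 and 4 at one end, luteal 3, luteal 5 and follicular 5 at the other, and follicular 2 among luteal libraries 1 and 4.

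**Figure D2:**
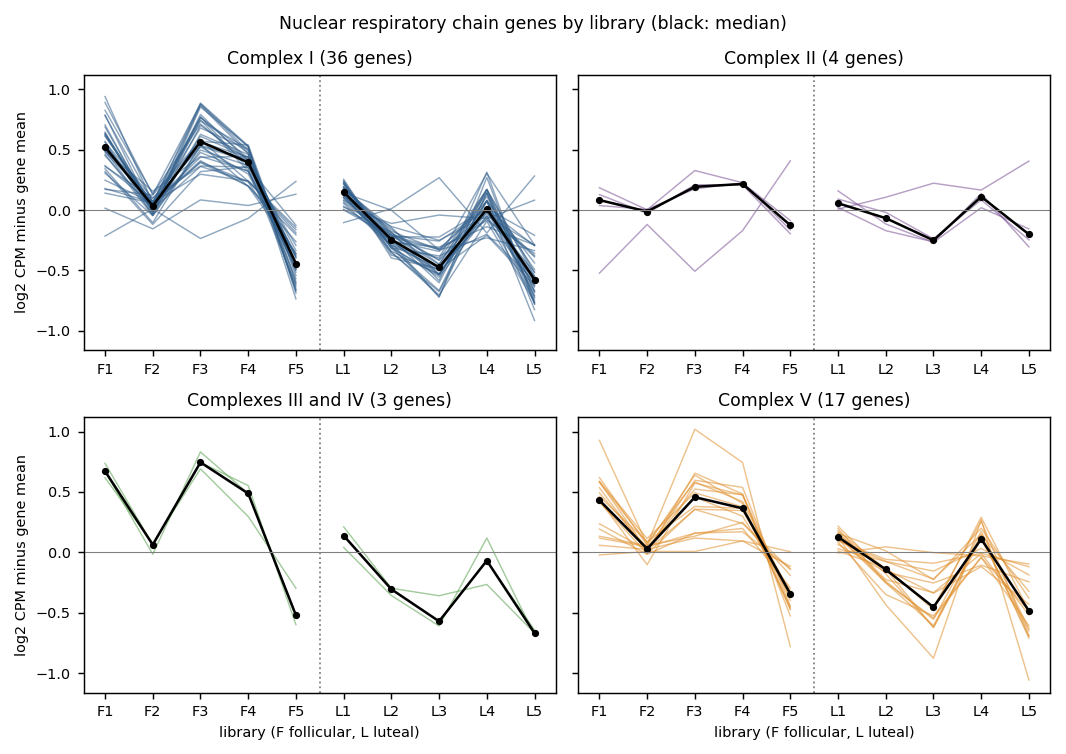
Thin lines join the values of 1 gene (log2 CPM minus its mean over the 10 libraries) across follicular libraries F1 to F5 and luteal libraries L1 to L5, and black points give the median of the panel; libraries have no order within a phase. F1, F3 and F4 are high and F5, L3 and L5 low in complexes I, III, IV and V, and complex II varies less, with SDHD running the other way.

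Complex I, the NADH dehydrogenase, is the largest complex and gave 36 nuclear members. They fall into 7 core subunits, which carry the flavin and the iron-sulphur clusters, and 29 accessory subunits, which surround the core and are needed for its assembly and stability. All 29 accessory members had a lower estimate in luteal libraries, with a median of -0.50, and 14 of them had an unadjusted p under 0.05 by edgeR. Of the core members 6 of 7 had a lower estimate, with a median of -0.33, and 1 had an unadjusted p under 0.05.

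NDUFA13, an accessory subunit also known as GRIM-19, had the lowest estimate of complex I. Its level was 350.2, 190.3, 337, 264 and 113 CPM in follicular libraries 1 to 5 and 200.2, 143, 114, 192 and 96.8 in the luteal libraries 1 to 5. Follicular 1 and 3 were above every luteal library, and follicular 5 was below all luteal libraries but luteal 5. The follicular mean was 251 ± 100.2 CPM and the luteal mean 149 ± 46.0 CPM (SD over 5 libraries each), a log2 fold change of -0.75 (SE 0.30) with an edgeR adjusted p of 0.426.

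NDUFS5, an accessory subunit on the side of the intermembrane space, followed the same order. It had 425, 250.2, 421, 321 and 137 CPM in follicular libraries 1 to 5 and 273, 179.8, 141, 215 and 135 in the luteal libraries 1 to 5 (log2 fold change -0.72, SE 0.29). As in NDUFA13, follicular 5 stood with the low luteal libraries. NDUFB6 and NDUFA12, accessory subunits with the smallest p in complex I, varied less. NDUFB6 had 68.8, 50.5, 64.6, 59.4 and 44.9 CPM in follicular and 54.1, 41.8, 40.7, 45.7 and 41.2 in the luteal libraries (log2 fold change -0.37, SE 0.13). NDUFA12 had 112, 81.0, 111, 102 and 61.1 CPM in follicular and 84.2, 63.0, 55.1, 74.1 and 54.0 in the luteal libraries (log2 fold change -0.50, SE 0.18). In both, luteal 1 lay above follicular 2 and follicular 5 lay inside the luteal range, below luteal 4.

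A further 10 accessory subunits had an unadjusted p under 0.05 in the same direction. NDUFB1, NDUFB7, NDUFA6 and NDUFB9 had log2 fold changes of -0.64, -0.64, -0.62 and -0.60, and NDUFS4, NDUFB4 and NDUFA10 of -0.54, -0.54 and -0.52. NDUFS4 is an accessory subunit whose loss causes Leigh syndrome, an early neurodegenerative disease. It had 116, 77.4, 126, 93.5 and 53.5 CPM in follicular and 86.9, 60.2, 57.5, 65.1 and 49.8 in the luteal libraries. NDUFB2, NDUFA5 and NDUFV3 had log2 fold changes of -0.42, -0.38 and -0.26. The other 15 accessory members ranged from -0.59 for NDUFA7 to -0.24 for NDUFA9, at mean follicular levels of 21.4 to 238 CPM.

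Among the core subunits, NDUFV1, which binds NADH and the flavin, had a follicular mean of 242 ± 71.1 CPM and a luteal mean of 174 ± 39.0 CPM (-0.48, SE 0.22; edgeR adjusted p = 0.426). NDUFS8 and NDUFS7, which carry iron-sulphur clusters, and NDUFS3 had log2 fold changes of -0.46, -0.33 and -0.33. NDUFV2, the partner of NDUFV1 in the NADH module, hardly differed, at 67.7 ± 4.97 and 65.5 ± 3.51 CPM. NDUFS1, the largest subunit and a carrier of iron-sulphur clusters, was the single nuclear complex I member with a higher estimate in luteal libraries. It had 56.7, 66.3, 55.9, 62.8 and 77.7 CPM in follicular and 61.3, 66.3, 79.3, 57.7 and 80.1 in the luteal libraries (log2 fold change 0.11, SE 0.13; edgeR adjusted p = 0.646). Its libraries stood in the reverse order: follicular 5, luteal 3 and luteal 5 were its highest and follicular 1 and 3 its lowest.

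Complex II, the succinate dehydrogenase shared with the citric acid cycle, gave 4 members with a median log2 fold change of -0.14. SDHA, the flavoprotein, had follicular and luteal means of 285 ± 33.2 and 260.3 ± 29.7 CPM (-0.13, SE 0.11), and SDHB, the iron-sulphur subunit, 200.4 ± 26.4 and 171 ± 22.8 CPM (-0.23, SE 0.12). SDHC, a membrane anchor, averaged 75.2 ± 6.65 and 68.2 ± 7.92 CPM (-0.14, SE 0.10). SDHD, the other membrane anchor, had 25.4, 33.5, 25.6, 32.4 and 48.3 CPM in follicular and 36.6, 39.2, 42.5, 40.9 and 48.2 in the luteal libraries (0.33, SE 0.17; edgeR adjusted p = 0.430). In SDHD the luteal libraries lay above follicular 1 to 4, and follicular 5 was the highest of all. Summed, the complex II genes took 0.0571% ± 0.00236 of the reads in follicular and 0.0558% ± 0.00300 in luteal libraries.

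Complexes III and IV gave 3 nuclear members, all with an unadjusted p under 0.05 and lower in luteal libraries. UQCRH, the hinge protein that helps cytochrome c dock on complex III, had 561, 351, 564, 493 and 222 CPM in follicular and 346, 262, 220.3, 365 and 209 in the luteal libraries. Follicular 1, 3 and 4 lay above every luteal library and follicular 5 among the lowest luteal ones (log2 fold change -0.64, SE 0.25; edgeR adjusted p = 0.426). COX5A, a subunit of cytochrome c oxidase, had 328, 203, 366, 288 and 143 CPM in follicular and 226, 166, 138, 196 and 132 in the luteal libraries (-0.63, SE 0.24). NDUFA4, named for complex I but known as a subunit of complex IV, had 213, 146, 224, 170.4 and 113 CPM in follicular and 161, 113, 108, 115 and 87.2 in the luteal libraries (-0.57, SE 0.20). The same split of the follicular libraries was seen in COX5A and NDUFA4, with follicular 5 at or below the level of luteal 2.

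Complex V gave 17 nuclear members, all with a lower estimate in luteal libraries, with a median of -0.37, and 7 of them at an unadjusted p under 0.05. The catalytic head and its shaft gave 5 members with a median of -0.29. ATP5F1A and ATP5F1B, the alpha and beta subunits where ATP is made, were close between phases. ATP5F1A had means of 597 ± 36.9 and 568 ± 34.4 CPM (-0.07 on the log2 scale, SE 0.09), and ATP5F1B of 677 ± 56.4 and 613 ± 43.2 CPM (-0.14, SE 0.10). ATP5F1C, the rotating gamma shaft, averaged 250.1 ± 33.6 and 205 ± 19.1 CPM (-0.29, SE 0.11). The delta and epsilon subunits of the central stalk, ATP5F1D and ATP5F1E, had log2 fold changes of -0.37 and -0.45.

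The membrane part held the largest difference of all members. ATP5ME, a small subunit at the base of the enzyme, had 397, 218, 424, 350.0 and 122 CPM in follicular and 228, 155, 114, 252 and 100.4 in the luteal libraries (log2 fold change -0.83, SE 0.35; edgeR adjusted p = 0.426). It differed 4.22-fold between follicular 3 and luteal 5, the widest range among nuclear members. ATP5MK, a small membrane subunit with the smallest p of complex V, had 131, 93.0, 132, 118 and 69.3 CPM in follicular and 93.1, 69.0, 61.0, 85.4 and 62.8 in the luteal libraries (-0.55, SE 0.19). In both genes follicular 1, 3 and 4 lay above all luteal libraries. ATP5MF and ATP5MG, small membrane subunits, had log2 fold changes of -0.53 and -0.31.

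The rotor ring is built from subunit c, which ATP5MC1, ATP5MC2 and ATP5MC3 all encode. ATP5MC1 had a follicular mean of 172 ± 42.9 CPM and a luteal mean of 126 ± 33.1 CPM (-0.45 on the log2 scale, SE 0.21). ATP5MC2 averaged 136 ± 18.6 and 128 ± 21.5 CPM (-0.09, SE 0.14), and ATP5MC3 157 ± 17.1 and 141 ± 19.5 CPM (-0.15, SE 0.12). By edgeR the adjusted p was 0.426, 0.731 and 0.520, and the difference between the 3 estimates was not tested. Closely similar copies of these genes can share reads, so the split of reads among them is uncertain.

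The peripheral stalk, which holds the head still, held members far apart in their estimates. ATP5PF, ATP5PD and ATP5PO, each with an unadjusted p under 0.05, had log2 fold changes of -0.52, -0.38 and -0.37. ATP5PB, the long subunit b of the same stalk, was the steadiest of all nuclear members: it had 125, 128, 128, 136 and 128 CPM in follicular and 127, 131, 127, 125 and 119 in the luteal libraries (-0.04, SE 0.07), a 1.14-fold range. ATP5IF1, the inhibitor that stops the synthase from running backwards, had 197, 136, 214, 189.9 and 94.3 CPM in follicular and 158, 120.1, 88.3, 150.3 and 83.0 in the luteal libraries (-0.47, SE 0.24; edgeR adjusted p = 0.430). Its order of libraries was that of most nuclear members.

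The mitochondrial genome is transcribed from both strands as long precursors that are cut into single messages, so its genes share their promoters. ND6 alone among the protein genes lies on the light strand. Summed, the 13 genes took 2.72%, 3.37%, 2.21%, 2.60% and 3.56% of the reads in follicular libraries 1 to 5 and 3.04%, 3.21%, 3.41%, 2.33% and 3.46% in luteal libraries 1 to 5. The phases overlapped, with 2.89% ± 0.560 and 3.09% ± 0.454 (SD, n = 5 per phase). The 60 nuclear genes took 1.14%, 0.913%, 1.17%, 1.07% and 0.742% in follicular and 0.979%, 0.814%, 0.741%, 0.900% and 0.701% in luteal libraries. The ratio of the mitochondrial to the nuclear sum ran from 1.88 to 4.80 in follicular and from 2.59 to 4.94 in luteal libraries, and was highest in luteal 5 and follicular 5 and lowest in follicular 3.

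The mitochondrial genes were grouped by the direction of their luteal estimate, higher in 8 and lower in 5. ND1, ND2, ND4, ND4L, ND5, COX1, CYTB and ATP8 all had their lowest value of the 10 libraries in follicular 3 and their highest in follicular 5 or luteal 5, the reverse of most nuclear members. COX2, COX3, ND3, ND6 and ATP6 made up the group with a lower luteal estimate, and none of them was highest in follicular 5 or luteal 5. Follicular 5 was the lowest follicular library in 4 of these 5, while in ATP6 it was follicular 3.

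CYTB, the single mitochondrial subunit of complex III, had 288, 531, 199, 238 and 639 CPM in follicular and 458, 652, 668, 307 and 781 in the luteal libraries (log2 fold change 0.60, SE 0.34; edgeR adjusted p = 0.441). Follicular 2 and 5 lay inside the luteal range and the other follicular libraries below it. ND5, a proton-pumping subunit of complex I, had 388, 539.8, 356, 361 and 825 CPM in follicular and 491, 669, 741, 410.1 and 927 in the luteal libraries (0.39, SE 0.27). COX1, the catalytic subunit of complex IV, had 5053, 7061, 3686, 5281 and 9029.6 CPM in follicular and 6093, 7413, 8595, 5366 and 8982 in the luteal libraries (0.28, SE 0.23). In both the highest follicular value came from follicular 5, which lay below luteal 5 in ND5 and above it in COX1.

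Of the other complex I subunits of mitochondrial DNA, ND1, ND4 and ND2 had log2 fold changes of 0.32, 0.26 and 0.25, and mean levels of 349.6 ± 139, 3118 ± 1013 and 1671 ± 627 CPM in follicular libraries against 438 ± 85.7, 3743 ± 624 and 1983 ± 478 in the luteal libraries. ND4L and ATP8 overlap ND4 and ATP6, with which they are carried on shared messages. How reads in an overlap were assigned is not given in the sources used here, so their levels are uncertain. ND4L had 42.2, 69.0, 34.0, 41.5 and 163 CPM in follicular and 60.8, 103, 118, 51.0 and 170.3 in the luteal libraries (0.52, SE 0.45), the widest range of any member at 5.02-fold. ATP8 stood at 0.74 to 2.83 CPM in follicular and 1.45 to 2.59 in the luteal libraries (0.18, SE 0.32), and without follicular 1 and 3 its estimate was -0.14.

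COX2, the complex IV subunit that receives electrons from cytochrome c, was the mitochondrial gene with the smallest p. It had 4227, 3048, 3628, 3058 and 2425 CPM in follicular and 3272, 2561, 2433, 2051 and 2236 in the luteal libraries (log2 fold change -0.38, SE 0.17; edgeR adjusted p = 0.426). Follicular 1 and 3 lay above every luteal library, and follicular 5 inside the luteal range. COX3 had 8465, 8756, 7451, 8137 and 6759.9 CPM in follicular and 7973, 6958, 6349, 6129.9 and 5702 in the luteal libraries (-0.26, SE 0.13). ND3, a small complex I subunit, had 1712, 1521, 1402, 1434 and 1102 CPM in follicular and 1427, 1314, 961, 1178 and 918 in the luteal libraries (-0.31, SE 0.15). In COX3 and ND3 luteal 1 reached well into the follicular range. ND6 averaged 22.0 ± 4.59 and 18.0 ± 4.24 CPM (-0.29, SE 0.19), and ATP6, the proton channel subunit of the ATP synthase, 4971 ± 597 and 4612 ± 310.5 CPM (-0.11, SE 0.12).

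**Figure D3:**
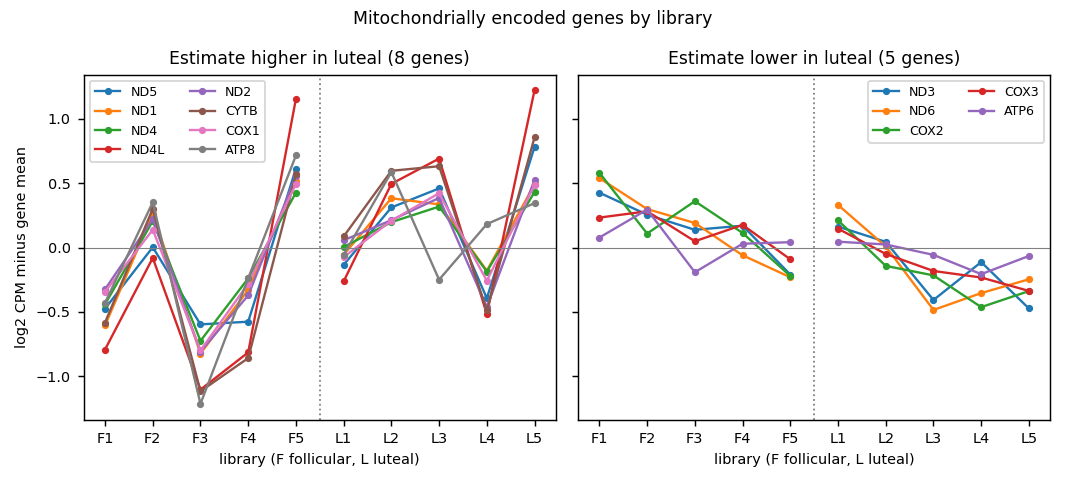
Lines join the values of 1 mitochondrially encoded gene (log2 CPM minus its mean over the 10 libraries) across follicular libraries F1 to F5 and luteal libraries L1 to L5, on the left for the 8 genes with a higher and on the right for the 5 genes with a lower luteal estimate. On the left every gene is lowest in F3 and highest in F5 or L5, and on the right none is highest in F5 or L5.

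Ratios between mitochondrial genes do not depend on the scaling of a library. The ratio of ND5 to ND3 reads was 0.227, 0.355, 0.254, 0.252 and 0.749 in follicular libraries 1 to 5 and 0.344, 0.509, 0.771, 0.348 and 1.01 in luteal libraries 1 to 5. The ratio of COX1 to COX2 reads was 1.20, 2.32, 1.02, 1.73 and 3.72 in follicular and 1.86, 2.89, 3.53, 2.62 and 4.02 in luteal libraries. Both ratios were highest in luteal 5, luteal 3 and follicular 5 and lowest in follicular 1, 3 and 4. Each ratio set a gene with a higher luteal estimate over a gene with a lower one. The ratios thus restate the split of the mitochondrial genes by direction and are not separate support for it. The cytosolic ribosomal proteins, highest in follicular 1 and 3 and lowest in follicular 5, luteal 5 and luteal 3, took 8.45%, 5.60%, 8.47%, 7.43% and 4.32% of the reads in follicular and 6.14%, 5.32%, 4.81%, 6.48% and 4.49% in luteal libraries. Total reads were 20644992 in follicular 3 and 21092056 in follicular 1, against 43193449 in follicular 5, 39073442 in luteal 5 and 28571863 in luteal 3. The mean total was 28178600 reads in follicular and 37595900 in luteal libraries. With every library thinned to the smallest total, the median log2 fold change was -0.43 for nuclear and 0.25 for mitochondrial members. The counts of lower estimates were 58 and 5. Thinning keeps the expected share of each gene in its library, so it cannot show the part of depth or composition. The part of either in the difference between phases was not tested.

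**Figure D4:**
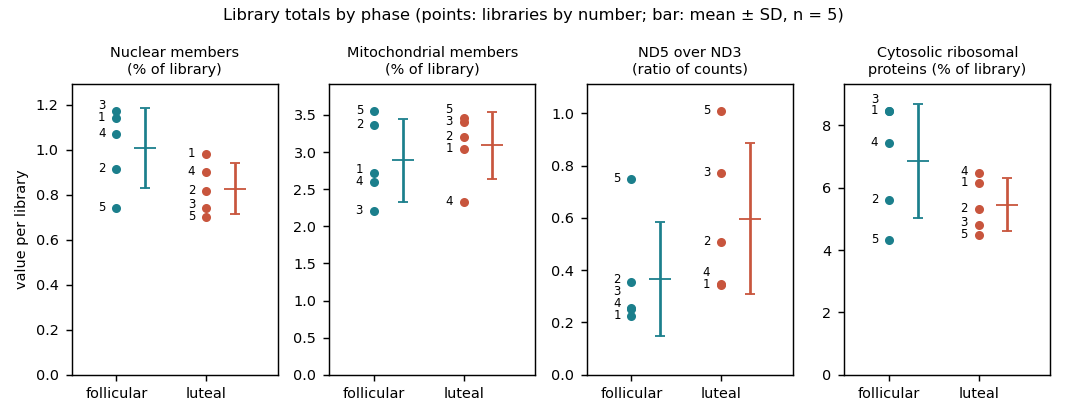
Points give each library, with its number, by phase for the reads of the 60 nuclear and 13 mitochondrial members as percent of the library, the ratio of ND5 to ND3 reads, and the cytosolic ribosomal protein reads as percent of the library; bars give mean ± SD (n = 5). Follicular 5 lies with luteal 3 and 5 in the nuclear share, the ratio and the ribosomal share.

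Markers of cell types were summed beside these values. The summed level of 8 neuronal markers was 866 to 1010 CPM in follicular and 746 to 1033 in the luteal libraries, with 3 of 8 lower. STMN2 weighed most in this sum, with a follicular mean of 479 and a luteal mean of 393 CPM. For 6 astrocyte markers the sum was 4048 to 5164 and 3180 to 5000 CPM, with 3 of 6 lower. GFAP weighed most in it, with a follicular mean of 3568 and a luteal mean of 2804 CPM. For 7 microglial markers the sum was 356 to 592 and 373 to 451 CPM, with 5 of 7 lower. For 5 endothelial markers it was 146 to 218 and 159 to 208 CPM, with 1 of 5 lower. The 6 arcuate genes were lower in 5 of 6, with a median log2 fold change of -0.47. For follicular libraries 1 to 5 their sum was 1926, 1336, 2069, 1893 and 1014 CPM. For luteal libraries 1 to 5 it was 1550.1, 1482, 1471, 1496 and 918. Follicular 1, 3 and 4 were thus high and follicular 5 and luteal 5 low, as in most nuclear members. The match was partial: luteal 3, among the lowest in nuclear members, stood near luteal 2 and 4, and follicular 2 lay below luteal 1 to 4. POMC weighed most in the sum, with a follicular mean of 1060 and a luteal mean of 903 CPM. Markers of oligodendrocytes were lower in 6 of 6, with 827 to 1400 and 509 to 1281 CPM, and those of the choroid plexus higher in 7 of 7, with 25.4 to 58.2 and 37.6 to 120.9 CPM. The red blood cell genes summed to at most 1.70 CPM and were at 0 in luteal 3. No marker passed edgeR, and the part of cell makeup in the respiratory chain values was not tested.

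Genes that build or serve the chain were compared from lists of their own, and 0 of them passed edgeR. Of 16 measured complex I assembly factors (17 listed) 12 had a lower estimate in luteal libraries (median -0.15), with NDUFAF5 and NDUFAF8 at -0.58 (SE 0.17) and -0.75 (SE 0.29). Of 10 measured assembly factors of complexes II, III and V (14 listed) 8 had a lower estimate (median -0.30), with SDHAF3 at -0.74 and SDHAF1 at -0.65, and of the 4 measured among 24 listed for complex IV 3 did (median -0.34), with CMC1 at -1.03 and CMC2 at -0.56. The mitochondrial ribosomal proteins, which translate the 13 mitochondrial messages, had a lower estimate in 68 of 76 (median -0.31), with MRPL22 at -0.47 and MRPS5 at -0.39. The cytosolic ribosomal proteins had one in 76 of 76 (median -0.48), with RPS26 at -0.78 and RPS27L at -0.42.

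The next lists were import, antioxidant defence, glycolysis and carriers. Of 19 genes of mitochondrial protein import 17 had a lower estimate (median -0.36), with TOMM5 at -0.48 and TIMM8A at -0.34. Of 10 antioxidant genes 7 did (median -0.28), with GLRX2 at -0.41 and GPX4, which reduces lipid peroxides, at -0.49. Of 17 glycolytic genes 15 did (median -0.21), with TPI1 at -0.54 and PFKL at -0.35. Among carriers near the chain 10 of 14 did (median -0.07), with NDUFAB1, the mitochondrial acyl carrier protein, at -0.50 and ETFB at -0.60.

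The remaining lists were those of metabolism, gene expression and turnover in the mitochondrion. The citric acid cycle was even, with 9 of 18 lower (median 0.00), SUCLG2 at 0.42 and SUCLG1 at -0.41. Of 14 genes for mitochondrial DNA upkeep and transcription 3 had a lower estimate (median 0.05), with POLG, the mitochondrial DNA polymerase, at 0.19 (SE 0.08) and TWNK, its helicase, at -0.18. Of 14 regulators of mitochondrial biogenesis 2 had a lower estimate (median 0.23), with ESRRG, a nuclear receptor, at 0.92 (SE 0.36) from a low level of 0.866 CPM in follicular libraries, and YY1, a transcription factor of nuclear respiratory genes, at 0.29. Of 17 genes for mitochondrial RNA processing 11 did (median -0.10), with HSD17B10 at -0.41 and PRORP at -0.35, and of 14 for mitophagy and mitochondrial dynamics 5 did (median 0.06), with FIS1 at -0.59 and PHB2 at -0.41.

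**Figure D5:**
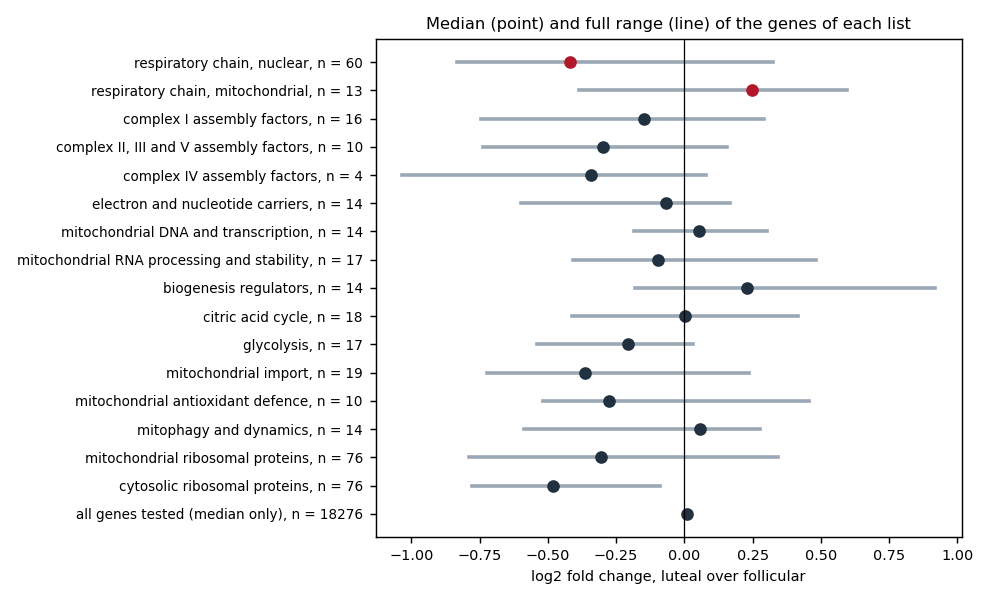
For each list the point gives the median and the line the full range of its genes' fold changes (log2, luteal over follicular), with the number of genes tested. The nuclear respiratory chain (median -0.42) lies between the cytosolic ribosomal proteins (-0.48) and mitochondrial import (-0.36). The mitochondrial genes (0.25) lie nearest the biogenesis regulators (0.23), and the median of all genes tested is 0.01.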

How the data were processed

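The authors deposited whole-number read counts per gene, not normalised, in a single table with 1 column per library. TriReagent extraction and TruSeq stranded mRNA libraries are given per the labels' protocols. Per the submitters' processing notes, the tools included featureCounts 2.0.0, TopHat2 2.1.1, Bowtie2 2.3.5.1, SAMtools 1.9, FastQC and bcl2fastq 2.20. The build, strand setting and handling of shared reads are not given in the sources used here, so genes with near-identical copies, or with nuclear copies of mitochondrial DNA, are uncertain.

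Counts were tested in R 4.3.3 by edgeR 4.0.16 (quasi-likelihood F-test, two-sided, phase as the only term) after filterByExpr (minimum count 10, minimum total 15) and TMM scaling. CPM were taken relative to the scaled total. Adjustment was by Benjamini-Hochberg over 18276 genes, with a threshold of 0.05. The biological coefficient of variation was 25.1%. SE is the fold change divided by the root of F. Libraries of a phase are mixes of separate ewes.

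Members and lists were chosen with earlier results of these data known, and no test was made over a list. Named members were all mitochondrial ones, per complex the 3 with the smallest p and the most abundant, a fixed set of isoforms, every member with an unadjusted p under 0.05, and nuclear members with a higher luteal estimate and a p under 0.5. Others are named as values chosen after they were seen. From each list the 2 genes with the smallest p are given. Of 246 list symbols 215 matched, some by identifier through the gene table of ARS-UI_Ramb_v3.0, which held all 73 members under the same symbol. No 2 libraries agreed within sampling noise in a chi-square test. The tests were checked on simulated data. Promoter and protein sequences, and levels per length, were not analysed here. The values of 1 member are not reported here singly. Alternatives were other scalings and filters, limma 3.58.1, DESeq2 1.42.0 and left-out libraries.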

Additional observations from a re-analysis of the deposited data

Results flagged for a closer look

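An extreme library was singled out where the distance to its neighbour in value, as a share of the spread from lowest to highest, was above 0.71, the 95% limit of Dixon's test for 5 samples. This was so in 2 of 116 groups of values, and chance alone gives about 1 in 20, or 5.8. Both concern follicular 5. Its level of ND4L was 162.6 CPM, against 34.0 to 69.0 CPM in the other follicular libraries, and its ratio of ND5 to ND3 reads was 0.749, against 0.227 to 0.355.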

How the results depend on the processing

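A total of 22 alternative settings was tried. Under each of them 58 of the 60 nuclear members had a lower estimate in luteal libraries, and 5 of the 13 mitochondrial members did, except without follicular 1 and 3 together, where 6 did because ATP8 turned to -0.14. The count of all genes called was 0 by edgeR, 0 by limma-voom, 35 by DESeq2 and 5867 by limma-voom with quality weights. With single libraries left out it was 0 to 1, the 1 being without luteal 4. Quality weights called 63 of the 73 members, 54 of them nuclear, beside 5867 of all 18276 genes tested. These weights ran from 0.237 for follicular 5 to 3.87 for luteal 2, so the libraries counted unequally. No member was called by the other settings. The smallest adjusted p of a member was 0.249 by DESeq2 and 0.0606 by edgeR without follicular 5. With single libraries left out, the median log2 fold change of nuclear members ran from -0.55 to -0.35 and that of mitochondrial members from 0.11 to 0.45. Scaling by RLE or upper quartile gave nuclear medians of -0.43 and -0.40 and changed no direction.

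The replicate numbers name random mixes within a phase, so the numbers were not taken to pair libraries. Deviations of libraries with the same number correlated at 0.36, 0.05, -0.33, 0.28 and 0.63 for numbers 1 to 5. These correlations were not the ground for that choice. With the replicate block 0 genes and 0 members passed edgeR, the medians were -0.41 for nuclear and 0.28 for mitochondrial members, and 48 nuclear members were lower at an unadjusted p under 0.05 against 25 without it, while the share of all genes lower at that level was 12.6% against 7.12% and the share higher 12.1% against 4.27%. Under the block 1 nuclear member was higher at that level, and 4 mitochondrial members were lower and 4 higher, against 1 and 0 without it. Of the 5 follicular libraries 3 correlated best with their own number. Depth limits ATP8 most, with 654 reads over all 10 libraries.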
